A study of Mus musculus with 12 samples.

Results

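The genes of heme breakdown and iron handling were followed in C2C12 cells, a myoblast line from C3H mice that forms myotubes in low-serum medium, with and without silencing of Bach1. These are 10 genes chosen by their role, and every probe carrying one of the 10 symbols in the deposited table was taken, which gave 17 of the 56605 probes on the array (10 of 27306 gene symbols). The genes were Slc48a1, Hmox1, Hmox2, Blvra, Blvrb, Fth1, Ftl1, Slc40a1, Tfrc and Ireb2. The 4 groups, with 3 arrays each, were siControl day 0, siBach1 day 0, siControl day 2 and siBach1 day 2, where day 0 is before and day 2 after the change to differentiation medium containing horse serum. Cells of all 4 groups were transfected, either with a negative control siRNA or with the siRNA that the methods call siBach1-2. Since the arrays used 1 siRNA against Bach1 in 1 cell line, silencing of Bach1 and any other action of that siRNA cannot be told apart. The labels do not say whether replicates came from separate cultures, so that p-values measure the spread between these 12 samples, which may be technical. The question was whether the remainder of the route follows Hmox1 when Bach1 is silenced.

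Heme is an iron-containing ring that muscle cells need for myoglobin and for the mitochondrial respiratory chain. Slc48a1 (HRG1) moves heme out of endolysosomes, the heme oxygenases Hmox1 (HO-1, inducible) and Hmox2 (HO-2, constitutive) open the ring and release biliverdin, carbon monoxide and iron, and the biliverdin reductases Blvra and Blvrb reduce the biliverdin. The freed iron is stored in ferritin, made of heavy (Fth1) and light (Ftl1) chains, or leaves the cell through ferroportin (Slc40a1), while the transferrin receptor (Tfrc) brings iron in and Ireb2 (IRP2) binds the messenger RNAs of ferritin and Tfrc when iron is low. Bach1 is a repressor that binds DNA together with small Maf proteins and lets go when it binds heme, and Hmox1 is its best known target.

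The promoter windows of the reference were searched for 3 motifs, since small Maf partners share such sites. Of the 10 genes, 7 had at least 1 window in the RefSeq table (assembly GRCm38.p6), 12 windows in all, each running from 250 bases before to 50 after an annotated start. Hmox1, Slc40a1 and Slc48a1 had none there. Both strands were searched for TGAGTCA (the AP-1 core, held by 5.2% of all 32851 windows), TGACNNNGC (the core of the antioxidant response element, held by 12.4%) and GCTGAGTCA (the AP-1 core with the adjoining part of a Maf recognition element, which contains the first motif, held by 0.454%). Among the 12 windows there was 1 match, to TGACNNNGC on the reverse strand of the Blvra window, at base 202 of the window. The 3 windows below are those of Fth1, the ferritin gene that passed the test at day 0, of its partner Ftl1, which did not, and of Blvra, with the match in capitals. The Fth1 window is chr19:9982396-9982695 on the plus strand, the downstream one of its 2 windows (the other, chr19:9980350-9980649, also held no match), the Ftl1 window chr7:45459837-45460136 on the minus strand, and the Blvra window chr2:127070407-127070706 on the plus strand.
Fth1: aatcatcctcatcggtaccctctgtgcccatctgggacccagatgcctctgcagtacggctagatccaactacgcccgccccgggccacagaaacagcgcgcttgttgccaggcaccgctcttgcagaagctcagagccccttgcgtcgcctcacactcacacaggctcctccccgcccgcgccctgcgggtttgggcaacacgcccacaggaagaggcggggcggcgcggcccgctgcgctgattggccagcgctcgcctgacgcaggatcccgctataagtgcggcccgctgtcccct
Ftl1: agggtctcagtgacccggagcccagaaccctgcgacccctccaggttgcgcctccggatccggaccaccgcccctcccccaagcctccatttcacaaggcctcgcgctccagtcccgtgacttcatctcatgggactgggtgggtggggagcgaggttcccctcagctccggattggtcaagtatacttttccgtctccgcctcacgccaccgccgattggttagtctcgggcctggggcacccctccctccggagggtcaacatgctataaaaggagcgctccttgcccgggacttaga
Blvra: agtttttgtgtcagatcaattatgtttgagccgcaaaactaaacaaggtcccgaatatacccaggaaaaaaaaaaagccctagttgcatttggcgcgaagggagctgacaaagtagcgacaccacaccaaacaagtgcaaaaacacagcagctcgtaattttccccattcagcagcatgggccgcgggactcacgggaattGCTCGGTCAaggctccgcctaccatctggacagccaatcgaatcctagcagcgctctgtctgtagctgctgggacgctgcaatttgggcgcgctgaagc
A match is only a string of letters, and the absence of one in these windows says nothing about binding elsewhere. The array annotation names an older mouse assembly, so that no probe was placed on these coordinates.

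Values are given as log2 signal relative to the 75th percentile of the same array, so that 0 is the level of that percentile and 1 unit is a 2-fold difference. Levels of different probes were not compared, since probes differ in brightness. A probe entered the test if in some group all 3 arrays read well above background by the scanner's rule, and was called changed at a Benjamini-Hochberg adjusted p under 0.05 in limma, adjusted over all 29664 probes tested. Of the 17 probes, 15 were tested, and these were well above background on all 12 arrays. An array had 47.6% to 58.9% of its probes well above background, and precision is limited by having 3 arrays a group. Replicates 1 and 2 shared a slide and replicate 3 was on another, and each group had its own column of positions on both slides, so that position and group cannot be told apart. Of 8 myogenic markers 7 were well above background on all 12 arrays, including Myod1 and Des, the exception being Myf5, found on 8 arrays. The summed level of the 8 rose from 68.9 to 83.1 in siControl at day 0 to 1240 to 1330 at day 2. In siBach1 it rose from 63.3 to 79.3 to 813 to 973. Sums of markers, here and below, are of linear signal relative to the 75th percentile, given as the range over the 3 arrays. The brightest probes weigh most in them, at day 2 those of Acta1, Myh3, Tnnt3 and Myog. In bulk RNA of this kind, fewer cells of a type and less RNA per cell cannot be told apart.

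Bach1, the targeted gene, was lower in every siBach1 array than in any siControl array of the same day. In siControl cells it was 1.73, 1.55 and 1.78 at day 0 and 2.56, 2.55 and 2.58 at day 2. In siBach1 cells it was 0.18, -0.22 and -0.22 at day 0 and 0.57, 0.56 and 0.65 at day 2. The fit put Bach1 3.42-fold lower at day 0 (log2 change -1.77, SE 0.11, limma adjusted p = 1.2e-05) and 3.91-fold lower at day 2 (-1.97, SE 0.11, adjusted p = 1.4e-05).

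With Bach1 silenced at day 0, 5 of the 15 tested probes were called higher, from 4 genes (Hmox1, Slc40a1, Slc48a1 and Fth1), against 8.8% of all tested probes called higher. None was called lower, against 8.32% of all tested probes, and 5 also had an unadjusted p under 0.05, against 31.1% of all. At day 2, 4 probes from 3 genes (Hmox1, Slc40a1 and Slc48a1) were called higher, against 5.75% of all, and none lower, against 6.26% of all, while 7 of the 15 had an unadjusted p under 0.05, against 27.3% of all. With a change of at least 2-fold required as well, 2 probes were called at day 0, against 2.79% of all, and 3 at day 2, against 2.17%. The median log2 change of the 15 probes was 0.14 at day 0 and 0.23 at day 2, beside 0.09 and -0.01 over all tested probes. The genes called higher at both days thus lay at the entry of heme into the cytosol, at its cleavage and at export. For storage of iron only the Fth1 probe was called, at day 0, and 12 of 23 alternatives lost that call. Its log2 change was 0.31 at day 0 and 0.27 at day 2, so that no difference between days is shown. Probes of Hmox2, Blvra, Blvrb, Ftl1, Tfrc and Ireb2 were not called at either day. Both Tfrc probes had larger estimates than Fth1 at both days, with a wider spread.

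Hmox1, which opens the heme ring, showed the largest rise. Its brighter probe (A_55_P2757433) read 3.46, 3.30 and 3.76 on the siControl arrays and 6.66, 6.74 and 7.02 on the siBach1 arrays at day 0. At day 2 it read 2.93, 3.17 and 2.82 in siControl and 6.12, 6.0 and 6.18 in siBach1. The siBach1 and siControl arrays lay far apart at both days, with no overlap. The rise was 9.86-fold at day 0 (log2 3.30, SE 0.14, adjusted p = 1.4e-06) and 8.72-fold at day 2 (log2 3.12, SE 0.14, adjusted p = 2.8e-06). Among all 29664 tested probes this was the 1st by log2 change at day 0 and the 15th at day 2. Within slide 1 the change was 3.32 and 3.01 at days 0 and 2, and within slide 2, with 1 array a group, 3.26 and 3.36. The 4 group means, from low to high, were siControl day 2 (2.97 ± 0.18, SD, n = 3), siControl day 0 (3.51 ± 0.23), siBach1 day 2 (6.10 ± 0.09) and siBach1 day 0 (6.81 ± 0.19), and the arrays of no neighbouring groups overlapped. The second Hmox1 probe (A_52_P602559) was not tested, being well above background on only 2 arrays, both siBach1 day 2. It read -7.45 to -6.41 in siControl and -4.99 to -4.05 in siBach1 at day 0, and -7.29 to -6.51 and -4.68 to -4.46 at day 2, so that its siBach1 arrays also lay above its siControl arrays, near background.

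**Figure D1:**
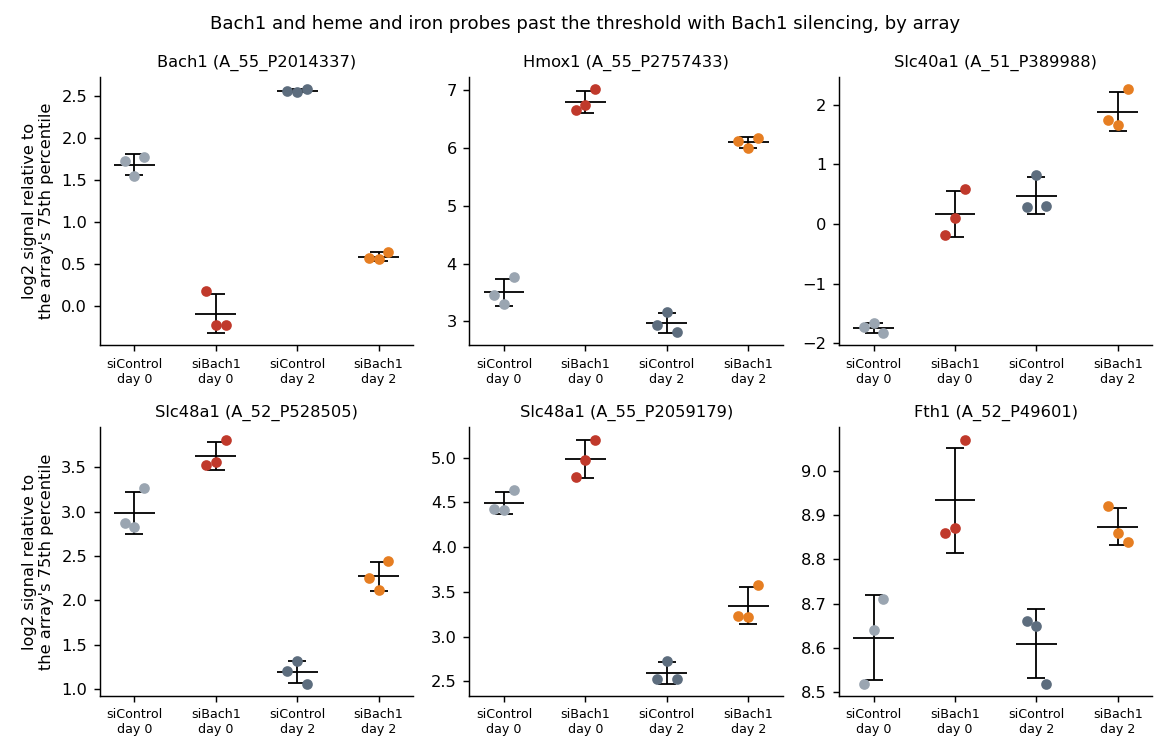
Log2 signal over the 75th percentile of its array (y axis, not starting at 0 and with its own range in each panel) of Bach1 and of the 5 probes called with silencing at day 0, in the 4 groups (x axis). Points are the 3 arrays of a group, horizontal lines means and bars SD. Bach1 lies lower in siBach1 than in siControl cells of the same day, and all 5 other probes lie higher, with Fth1 spanning the narrowest range.

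The exporter Slc40a1 followed Hmox1 at both days, by a smaller factor. Its tested probe (A_51_P389988) read -1.73, -1.66 and -1.83 in siControl and -0.19, 0.11 and 0.58 in siBach1 cells at day 0. At day 2 the readings were 0.28, 0.83 and 0.31 in siControl and 1.74, 1.66 and 2.26 in siBach1. Silenced and control arrays did not overlap at either day. The level was 3.75-fold higher at day 0 (log2 1.91, SE 0.23, limma adjusted p = 0.00036, rank 22 of all tested probes) and 2.66-fold higher at day 2 (log2 1.41, SE 0.23, adjusted p = 0.0039, rank 273). Within slide 1 the difference was 1.65 and 1.14 at days 0 and 2, and within slide 2 it was 2.41 and 1.95. In order, the group means were siControl day 0 (-1.74 ± 0.09, SD, n = 3), siBach1 day 0 (0.17 ± 0.39), siControl day 2 (0.48 ± 0.31) and siBach1 day 2 (1.88 ± 0.33), and the arrays of the middle pair overlapped. By the methods' t-test with Benjamini-Hochberg adjustment the day 2 rise missed the threshold (adjusted p = 0.075). The other Slc40a1 probe (A_55_P2620111) was well above background on no array and gives no reading of the gene.

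Slc48a1, the heme transporter of the endolysosome, rose by less, and both of its probes agree in direction. The probe A_52_P528505 read 2.87, 2.82 and 3.26 in siControl and 3.52, 3.56 and 3.81 in siBach1 at day 0, and 1.20, 1.31 and 1.06 against 2.25, 2.12 and 2.44 at day 2. The probe A_55_P2059179 read 4.43, 4.41 and 4.64 against 4.78, 4.97 and 5.20 at day 0, and 2.53, 2.73 and 2.52 against 3.23, 3.22 and 3.58 at day 2. The siBach1 arrays lay above the siControl arrays at both days, for both probes. The first probe was 1.56-fold higher at day 0 (log2 0.65, SE 0.14, limma adjusted p = 0.011) and 2.11-fold higher at day 2 (log2 1.08, SE 0.14, adjusted p = 0.0015). The second was 1.40-fold higher at day 0 (log2 0.49, SE 0.14, adjusted p = 0.035) and 1.68-fold higher at day 2 (log2 0.75, SE 0.14, adjusted p = 0.0075). For the first probe the difference was 0.69 and 0.93 within slide 1 and 0.55 and 1.37 within slide 2, and for the second 0.46 and 0.59 within slide 1 and 0.55 and 1.06 within slide 2, at days 0 and 2. At day 0 the first probe missed the threshold without siControl day 0 replicate 2 (log2 0.56, adjusted p = 0.05). The second missed it when any of 4 arrays was left out, siControl day 0 replicates 1 and 2 and siBach1 day 0 replicates 2 and 3 (log2 0.38 to 0.50, adjusted p 0.076 to 0.11), and with only the 6 arrays of the comparison in the fit (adjusted p = 0.07) or with no filter (adjusted p = 0.13). By the methods' t-test with Benjamini-Hochberg adjustment neither probe passed at day 0 (adjusted p = 0.099 and 0.12) and the second missed it at day 2 (adjusted p = 0.073).

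Ferritin moved little. The heavy chain Fth1, which carries the ferroxidase activity of the shell, read with its probe A_52_P49601 8.52, 8.64 and 8.71 in siControl and 8.86, 8.87 and 9.07 in siBach1 at day 0, and 8.66, 8.65 and 8.52 against 8.92, 8.86 and 8.84 at day 2. The siBach1 arrays were above the siControl arrays at both days by a small margin. The level was 1.24-fold higher at day 0 (log2 0.31, SE 0.09, 95% interval 0.11 to 0.50, limma adjusted p = 0.036) and 1.20-fold higher at day 2 (log2 0.27, SE 0.09, interval 0.07 to 0.46, adjusted p = 0.075), so that it was called at day 0 and not at day 2. Within slide 1 the day 0 difference was 0.28 and within slide 2 it was 0.36. This call was the least stable of those with silencing. Under quantile normalization the log2 change was 0.16 at day 0 (adjusted p = 0.17) and 0.38 at day 2 (adjusted p = 0.0088), which turned the calls around. The day 0 call was also lost when any of 8 arrays was left out, namely siControl day 0 replicates 1 and 2, siControl day 2 replicate 1, siBach1 day 0 replicates 1, 2 and 3, and siBach1 day 2 replicates 1 and 2 (log2 0.24 to 0.35, adjusted p 0.051 to 0.13). At day 2 the change was called in 5 of 23 alternatives, also with the slide as a term of the fit (adjusted p = 0.044), normexp background correction (adjusted p = 0.032), a robust prior (adjusted p = 0.034) and the methods' t-test without adjustment. In all, 12 of 23 alternatives lost the day 0 call. The light chain Ftl1, by its brighter probe (A_55_P2851873), read 8.63, 8.77 and 8.85 against 8.69, 8.86 and 9.13 at day 0 and 7.25, 7.41 and 7.47 against 7.50, 7.46 and 7.86 at day 2. These groups overlapped at both days. Its log2 difference was 0.14 (interval -0.17 to 0.45, adjusted p = 0.55) at day 0 and 0.23 (interval -0.08 to 0.54, adjusted p = 0.33) at day 2. Under quantile normalization the day 2 difference of this probe was 0.41 and passed the threshold (limma adjusted p = 0.032), while that of day 0 was -0.01 (adjusted p = 0.98). The second Ftl1 probe (A_55_P1983959) gave 0.07 and 0.21, with wider intervals (-0.40 to 0.54 and -0.26 to 0.68).

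**Figure D2:**
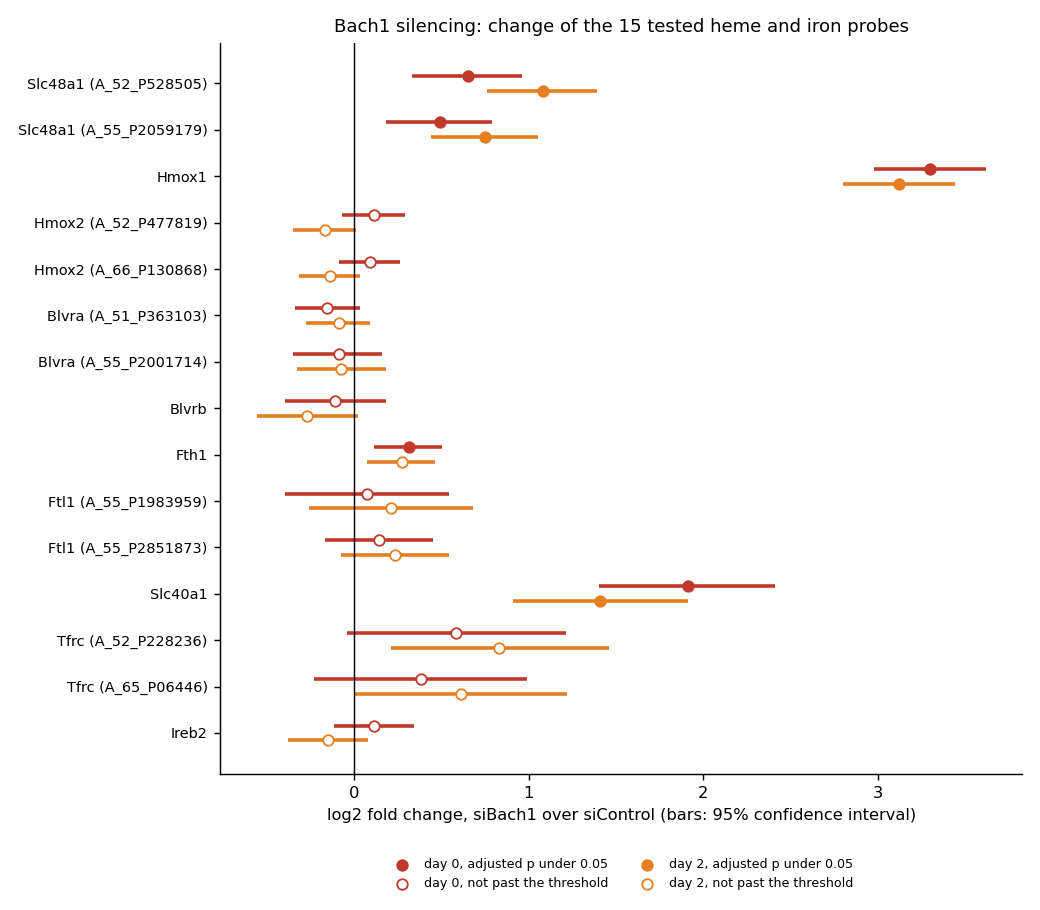
Log2 fold change of siBach1 over siControl (x axis) for the 15 tested probes (y axis, in the order of the route from heme entry to iron sensing), at day 0 and day 2. Points are estimates of the limma fit, filled where the adjusted p was under 0.05, and bars are 95% confidence intervals. Hmox1 stands apart near 3, Slc40a1 and Slc48a1 follow, and the intervals of both Hmox2 and both Blvra probes lie close to 0.

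The other heme oxygenase, Hmox2, and the biliverdin reductases of the next step were not called. Hmox2, the constitutive heme oxygenase, read 3.09, 3.22 and 3.16 in siControl and 3.28, 3.21 and 3.31 in siBach1 at day 0, and 2.79, 2.81 and 2.94 against 2.63, 2.63 and 2.77 at day 2 (A_52_P477819). Its log2 difference was 0.11 (interval -0.07 to 0.29, limma adjusted p = 0.38) at day 0 and -0.17 (interval -0.35 to 0.01, adjusted p = 0.20) at day 2, and the other Hmox2 probe (A_66_P130868) gave 0.09 and -0.14. Any change of Hmox2 with silencing was thus bounded well below that of Hmox1. Blvra, the main biliverdin reductase, read 2.19, 2.13 and 2.19 against 1.98, 1.95 and 2.11 at day 0 and 1.29, 1.09 and 1.27 against 1.16, 1.06 and 1.15 at day 2 (A_51_P363103). The difference was -0.16 (interval -0.34 to 0.03, adjusted p = 0.23) and -0.09 (interval -0.28 to 0.09, adjusted p = 0.52), and -0.09 and -0.08 by its second probe (A_55_P2001714). Blvrb, which reduces flavins as well as a biliverdin isomer, read with its probe A_55_P1991585 2.24, 2.48 and 1.99 against 2.04, 2.31 and 2.04 at day 0 and 1.82, 1.91 and 1.75 against 1.49, 1.67 and 1.51 at day 2. Its difference was -0.11 (interval -0.40 to 0.18, adjusted p = 0.63) at day 0 and -0.27 (interval -0.56 to 0.02, adjusted p = 0.21) at day 2, and with the replicate number as a block the day 2 value passed the threshold (-0.27, adjusted p = 0.045).

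Tfrc, the importer of transferrin-bound iron, had higher means with silencing at both days but a wide spread. The siBach1 arrays lay above the siControl arrays at both days by A_52_P228236, and at day 0 by A_65_P06446. The probe A_52_P228236 read 2.17, 2.48 and 2.82 in siControl and 2.92, 3.14 and 3.16 in siBach1 at day 0, and 1.39, 0.38 and 1.60 against 2.07, 1.79 and 2.01 at day 2. The second siControl array at day 2 was the lowest of its group by both Tfrc probes (0.54, -0.77 and 0.19 by A_65_P06446). The log2 difference of the first probe was 0.58 (interval -0.04 to 1.21, limma adjusted p = 0.19) at day 0 and 0.83 (interval 0.21 to 1.46, adjusted p = 0.084) at day 2, and that of the second 0.38 (adjusted p = 0.39) and 0.61 (adjusted p = 0.18). Without siControl day 2 replicate 2 the day 2 differences were 0.46 (adjusted p = 0.15) and 0.24 (adjusted p = 0.42), and the day 0 difference of the first probe, unchanged at 0.58, passed the threshold (adjusted p = 0.039). The first probe passed it at day 2 without siControl day 2 replicate 3 (1.07, adjusted p = 0.049), with the replicate number as a block (0.83, adjusted p = 0.049) or with the slide entered as a term (0.83, adjusted p = 0.041). Ireb2, the iron-sensing RNA-binding protein, read with its probe A_51_P196889 1.99, 2.35 and 2.09 against 2.32, 2.14 and 2.29 at day 0 and 2.10, 2.24 and 2.24 against 2.09, 1.95 and 2.09 at day 2. Its difference was 0.11 (interval -0.12 to 0.34, adjusted p = 0.54) at day 0 and -0.15 (interval -0.38 to 0.08, adjusted p = 0.40) at day 2. At day 2 the siBach1 arrays of Ireb2, of both Hmox2 probes and of Blvrb lay below the siControl arrays. Those of Blvra A_51_P363103 did so at day 0. Lack of overlap was thus not confined to called probes.

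**Figure D3:**
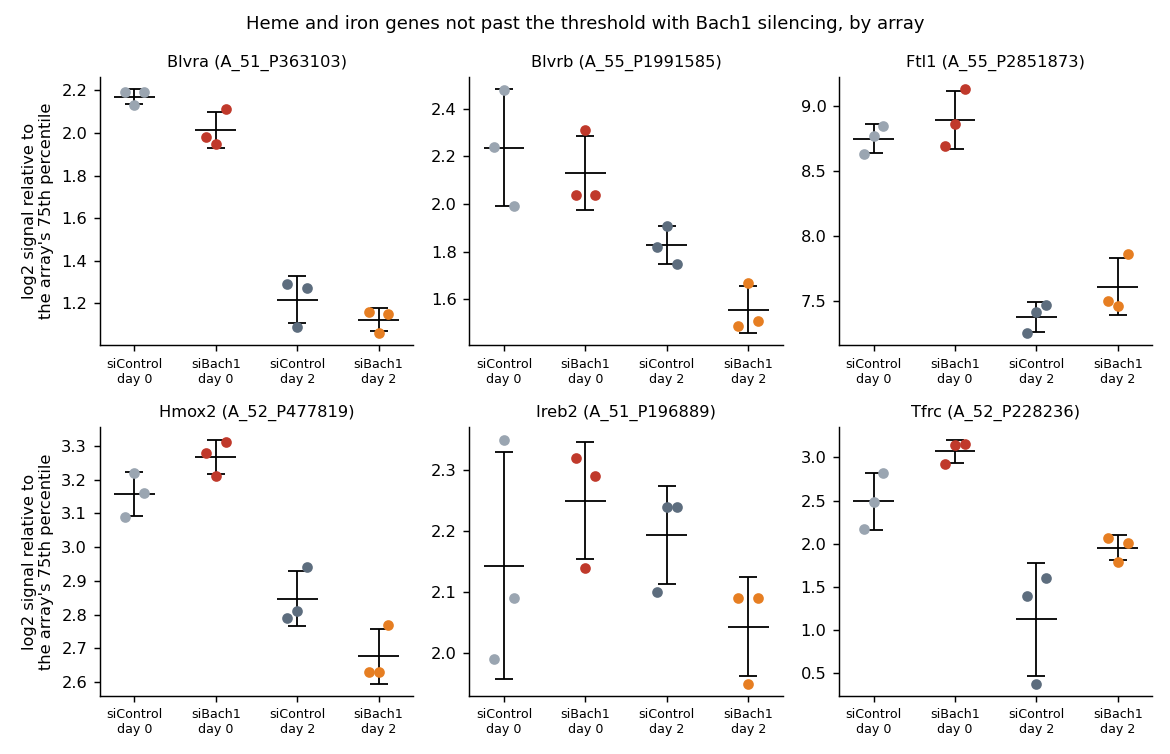
Log2 signal over the 75th percentile of its array (y axis, not starting at 0 and with its own range in each panel) of the genes that were not called with silencing, by the probe with the higher mean signal where a gene had more than 1, in the 4 groups (x axis). Points are the 3 arrays of a group, horizontal lines means and bars SD. Blvra, Ftl1 and Hmox2 differ between days more than between siRNAs, and Tfrc shows 1 low array in siControl day 2.

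The silencing effects of the 2 days were compared by their difference, day 2 minus day 0, in the same fit. None of the 15 probes was called, against 2.39% of all tested probes called higher and 2.2% called lower. At an unadjusted p under 0.05 there was 1 probe, Hmox2 A_52_P477819 (-0.28, limma adjusted p = 0.18), against 21.8% of all. There were 2 by a plain linear-model contrast of the 4 groups, which uses each probe's own spread. The share of all tested probes by that contrast is not given here, so that this count cannot be judged. For Hmox1 the difference was -0.18 (interval -0.63 to 0.28, adjusted p = 0.69), for Slc40a1 -0.50 (interval -1.21 to 0.21, adjusted p = 0.41) and for Slc48a1 0.43 (interval -0.01 to 0.88, adjusted p = 0.24) and 0.26 (interval -0.17 to 0.69, adjusted p = 0.50). The interval of Slc40a1 leaves room for silencing effects that differ between the days by more than 1 log2 unit. That Fth1 passed the threshold at day 0 and not at day 2 is no difference between days (-0.04, interval -0.32 to 0.23, adjusted p = 0.90).

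With differentiation most of the route fell, except for Slc40a1, Fth1 and Ireb2. In siControl cells, 13 of the 15 probes were called, 12 lower against 28.7% of all tested probes called lower, and 1 higher against 24.6% called higher. In siBach1 cells 13 were again called, 12 lower against 32.3% of all and 1 higher against 23.8% of all. With at least 2-fold required, 8 were called in siControl, against 20% of all, and 7 in siBach1 cells, against 20.5%. The median change of the 15 was -0.95 in siControl and -0.89 in siBach1 cells, beside 0 and -0.07 over all tested probes. The light ferritin chain Ftl1 fell by 2.34 on the log2 scale in siControl (5.05-fold, SE 0.21, limma adjusted p = 7e-06) and 2.19 in siBach1 (4.57-fold, adjusted p = 1e-05) with A_55_P1983959, the largest fall among the 15 probes, and by 1.38 and 1.29 with A_55_P2851873, less than either probe of Slc48a1. On the first of these probes the siControl arrays went from 6.06, 6.32 and 6.43 at day 0 to 3.71, 3.89 and 4.19 at day 2. The heavy chain Fth1, read by a single probe, did not follow. That probe had signals of 127000 to 215000, near those of Ftl1 A_55_P2851873 at day 0 (180000 to 221000). Of the Ftl1 probes, this brighter one fell less than the dimmer one. Whether readings this bright understate a change was not tested. The change of Fth1 was -0.02 (interval -0.21 to 0.18, adjusted p = 0.89) in siControl and -0.06 (interval -0.25 to 0.14, adjusted p = 0.61) in siBach1 cells.

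Slc48a1 fell by 1.79 and 1.90 in siControl and by 1.36 and 1.64 in siBach1 cells with its 2 probes (3.47-fold and 3.73-fold lower in siControl). Tfrc fell by 1.36 and 1.21 in siControl and by 1.11 and 0.97 in siBach1 cells, and Blvra by 0.95 and 1.03 in siControl and by 0.89 and 1.02 in siBach1 cells. Smaller falls were called for Hmox1 (-0.53 in siControl, limma adjusted p = 0.0095, and -0.71 in siBach1, adjusted p = 0.0017), for Hmox2 (-0.31 and -0.34 in siControl, -0.59 and -0.57 in siBach1) and for Blvrb (-0.41, adjusted p = 0.022, and -0.57, adjusted p = 0.0035). By the methods' t-test with Benjamini-Hochberg adjustment the falls in siControl missed the threshold for Tfrc (adjusted p = 0.064 and 0.073), Hmox1 (adjusted p = 0.069) and Blvrb (adjusted p = 0.096). The Hmox1 fall in siBach1 cells was -0.33 under quantile normalization (adjusted p = 0.06). The Blvrb fall in siControl cells was lost when siControl day 0 replicate 1 or 2 or siControl day 2 replicate 1 or 3 was left out (-0.41 to -0.29, adjusted p 0.053 to 0.088), and in 9 of 23 alternatives in all. Slc40a1 was the exception, and rose 4.64-fold in siControl (log2 2.21, SE 0.23, adjusted p = 1.6e-05) and 3.29-fold in siBach1 cells (log2 1.72, SE 0.23, adjusted p = 8.9e-05). Ireb2 was not called in either (0.05 and -0.20). Each of the 4 groups enters a comparison of days and a comparison of siRNAs, so that these are not independent.

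**Figure D4:**
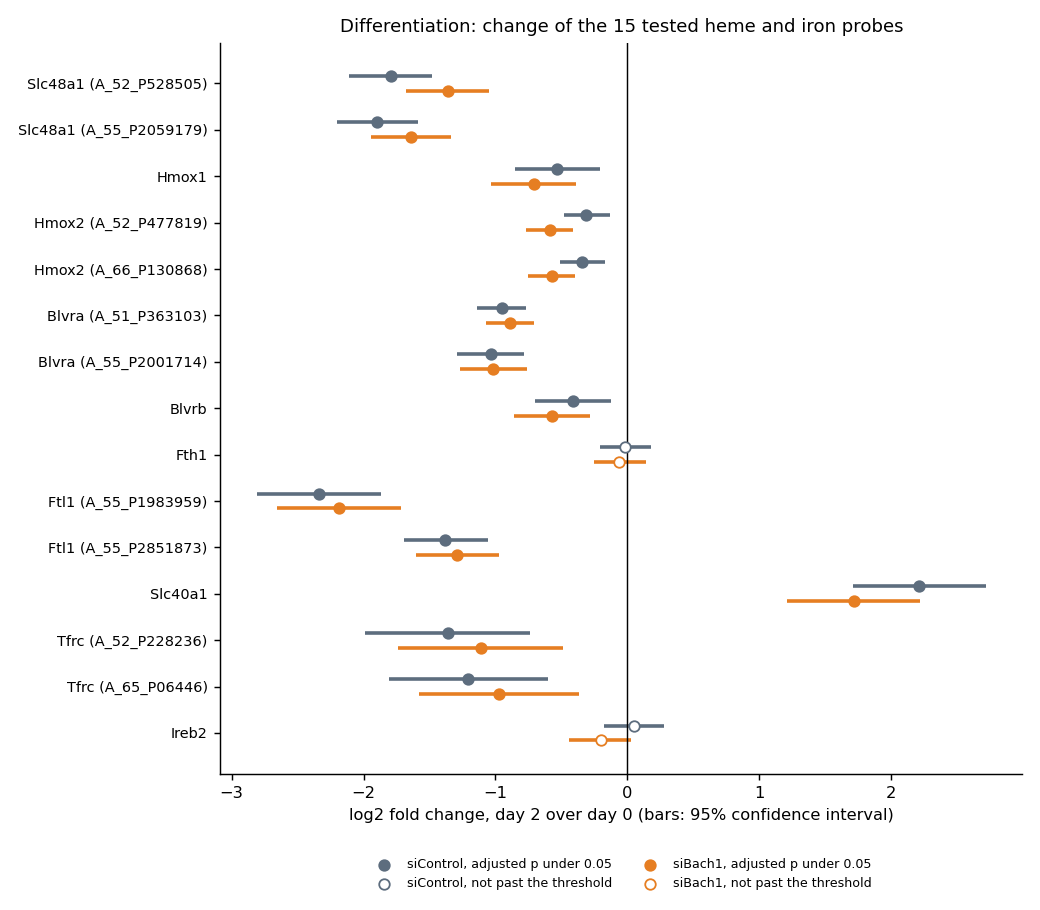
Log2 fold change of day 2 over day 0 (x axis) for the same 15 probes (y axis), in siControl and siBach1 cells. Points are estimates of the limma fit, filled where the adjusted p was under 0.05, and bars are 95% confidence intervals. All called probes lie below 0 except Slc40a1, and Fth1 lies at 0 in both.

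Among the 40 tested genes of wider lists of heme and iron metabolism, none was called with a change of 2-fold or more under silencing. Heme synthesis enzymes and globins were not in these lists. Lists of 50 genes of heme transport, the electron donor of heme oxygenase (Por), iron uptake and release, iron sensing and the hepcidin axis, ferritin turnover and iron chaperones, and mitochondrial iron had 48 genes on the array, of which 40 were tested, by the brightest tested probe of each. With silencing at day 0, 7 rose and 3 fell, against 8.8% and 8.32% of all tested probes, and at day 2, 3 rose and 4 fell, against 5.75% and 6.26%, with medians of 0.08 and 0.01 (0 past the threshold with a change of 2-fold or more). The genes named here were picked after their values were seen. The 7 that rose at day 0 included Slc46a1, a folate and heme transporter (0.73), Abcb6, an ATP-driven porphyrin transporter (0.68), and Steap1 (0.46). The others were the iron-sulfur cluster genes Nfs1 (0.41) and Iscu (0.34), the iron importer Slc11a2 (0.29) and the mitochondrial transporter Abcb8 (0.29). The 3 that rose at day 2 were Abcb6 (0.79), Cp, the ferroxidase ceruloplasmin, which works beside ferroportin (0.91), and Slc39a8, a metal importer (0.86). Of 5 tested Cp probes 3 were called at day 2, and A_52_P597002 (-0.15) and A_55_P2087607 (0.01) were not. Those that fell included Pcbp2, an iron chaperone (-0.57, and 0.07, not called, by its other probe), Slc11a1, a metal transporter of phagosomes (-0.51), and Pgrmc2, a heme chaperone (-0.41). At day 0 those that fell were Pgrmc2 (-0.72), Pcbp2 (-0.62) and Slc25a28, the mitochondrial iron importer mitoferrin-2 (-0.49). Probes other than the brightest differed in part. By such probes Slc11a2 (0.43 and 0.61) and Nfs1 (0.45) were also called higher at day 2. At day 0 the other probes of Iscu (0.02) and Abcb8 (0.29) were not called, and 1 probe of Slc25a37, of the mitochondrial iron list, was called lower (-0.95). By list, the heme transport genes gave 2 higher and 1 lower of 9 tested at day 0, the iron uptake and release genes 2 and 0 of 10, the mitochondrial iron genes 3 and 1 of 9, and the iron sensing and hepcidin genes 0 and 0 of 6. Por was not called at either day (-0.07 and 0.02). With differentiation 13 were called higher and 14 lower in siControl, against 24.6% and 28.7% of all tested probes, and 11 higher and 19 lower in siBach1 cells, against 23.8% and 32.3%, at medians of -0.19 and -0.21.

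The patterns most like that of Hmox1 were sought by the distance between the 3 group means taken relative to siControl day 0, over 21623 probes that carry a gene symbol and were well above background on all arrays. Hmox1 itself was at 3.30 in siBach1 day 0, -0.53 in siControl day 2 and 2.59 in siBach1 day 2. The 5 nearest genes were Gm20655 (distance 1.66 log2 units), Grhl3 (2.02), Hba-a2 (2.07), Hba-a1 (2.07) and Pdk4 (2.16). None of the other genes of the route was among them. The distance was taken on unscaled log2 changes, so that a gene following Hmox1 by a smaller factor lies far from it by size alone. The search therefore does not answer whether the route followed. The alpha-globin genes Hba-a1 and Hba-a2 are near-identical copies whose probes may share signal, and their group means were 1.39 and 1.40 in siBach1 day 0, -1.34 and -1.36 in siControl day 2 and 2.52 and 2.54 in siBach1 day 2.

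Markers of other cell types that handle heme iron were read beside these results. Of 6 macrophage markers, Ptprc, Csf1r and Cd14 were well above background on all 12 arrays, while Adgre1 and Spic, which mark iron-recycling macrophages, were so on none, and Cd163 on 2. The summed level of the 6 was 8.28 to 9.41 in siControl and 9.49 to 10.3 in siBach1 at day 0, and 5.69 to 7.98 and 5.34 to 7.88 at day 2. Of 5 erythroid markers, Epor was above background on all arrays, and the summed level was 0.894 to 1.09 and 1.08 to 1.56 at day 0 and 1.40 to 2.04 and 1.47 to 2.01 at day 2. Of 4 endothelial markers 3 were above background on no array, and of 4 adipocyte markers Adipoq and Cfd were so on none. The macrophage sum was thus slightly higher in siBach1 at day 0, and the myogenic sum lower in siBach1 at day 2, and their part in the results was not tested.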

How the data were processed

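RNA of 12 samples of C2C12 cells was hybridized by the authors to 1-color Agilent mouse arrays. They deposited the scanner files, which hold spot and background intensities and a processed signal that is already background-subtracted. A deposited table holds processed signals and normalized log2 values. The latter are each array's log2 signal minus its 75th percentile and the probe's median over arrays. Recomputed from the processed signals of the same table, they differed by at most 0.00034. The table was not compared with the scanner files. The scanner software was Agilent Feature Extraction, version 9.1 per the labels and 10.7.3.1 per the file headers.

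Control spots and the 76 to 110 outlier spots per array were removed, and no spot was saturated. Log2 of the processed signal was averaged over spots of a probe, then centred on the 75th percentile of the array. The 29664 of 56605 probes that read well above background throughout at least 1 of the 4 groups were fitted in limma 3.58.1 (R 4.3.3, tables with Python 3.11.15, pandas 2.3.3 and numpy 2.4.6), with the 4 groups in 1 fit and no block, at a Benjamini-Hochberg adjusted p under 0.05. The script was tested on simulated data. Genes are named as in the table, and 15 of 17 probe accessions were found in the RefSeq table with the same symbol.

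Arrays of the same replicate number correlated in their deviations from group means (18 pairs, r 0.142 to 0.595, against -0.443 to 0.265 in 36 other pairs). Replicate number also sets slide and row, so that pairing and place cannot be told apart. The genes, lists and rules were chosen with earlier results of these data known. Every probe of the 10 genes is named, and the 5 genes nearest to Hmox1. List genes were to be named where a probe passed with a change of 2-fold or more under silencing; none did, and those named were chosen after their values were seen. Some list genes are not reported here by name. Alternatives were quantile normalization, normexp with an offset of 50, the authors' values, other filters, replicate or slide as a block, fewer arrays, a robust prior, the methods' t-test and each array left out. For the difference between days, a plain contrast of the 4 groups took the place of the t-test, which compares 2 groups.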

Additional observations from a re-analysis of the deposited data

Results flagged for a closer look

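None of the 15 probes of the 10 genes differed between days in its silencing effect at an adjusted p under 0.05 in limma. Among the 40 tested genes of the wider lists, 3 did (1 higher and 2 lower), against 2.39% higher and 2.2% lower of all tested probes, and are given as values. For Slc39a8, a metal importer, the log2 effect of silencing was -0.48 at day 0 and 0.86 at day 2, a difference of 1.34 (SE 0.26, adjusted p = 0.021). For Slc11a1, a phagosomal metal transporter, it was 0.33 and -0.51, a difference of -0.83 (SE 0.15, adjusted p = 0.017). For Abcb8, a mitochondrial transporter, the brightest probe gave 0.29 and -0.19, a difference of -0.48 (SE 0.11, adjusted p = 0.04), and its other probe -0.38 (adjusted p = 0.30).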

How the results depend on the processing

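The 15 probes gave 75 results over 5 comparisons, and no value past the threshold changed sign under any alternative. Of the 35 called, 25 passed under every alternative, and of the 40 not called, 11 passed under at least 1. Hmox1 kept its call under every alternative that gave a test, at 3.18 to 3.43 at day 0 and 3.01 to 3.27 at day 2, and the difference between days stayed uncalled. The 5 probes called with silencing at day 0 became 3 with only the 6 arrays of the comparison, 2 with the methods' t-test after Benjamini-Hochberg adjustment, 8 with that test unadjusted and 2 with a 2-fold limit, and 2 to 6 with each array left out. At day 2, 4 became 2 and 7 with the adjusted and unadjusted t-test, and 4 to 5 with each array left out. With a 2-fold limit the 13 calls of differentiation became 8 in siControl and 7 in siBach1 cells, and they were 12 to 13 and 13 with each array left out. For the difference between days 0 became 2 with the plain 4-group contrast, unadjusted. By unadjusted limma p under 0.05, 31.1% of all tested probes passed at day 0, 27.3% at day 2 and 21.8% for the difference. Shares of all tested probes under the alternative fits are not given here. The counts of this paragraph therefore show only how calls of the 15 probes moved. With the replicate block the counts were 5, 6, 13, 13 and 0, and the added pair at day 2 were Tfrc and Blvrb. It changed no other call of the silencing effects. Quantile normalization moved the share of all calls of the difference between days that were higher from 52% to 64.8%, and normexp to 42.7%. The cause of these changes was not tested. Values within each slide were added after the data were seen. Signal over background limits the second probes of Hmox1 and Slc40a1, which gave no test.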

Other observations

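Outside the 10 genes, the largest changes with differentiation in the wider lists, picked after their values were seen, were rises. Hfe2, the bone morphogenetic protein co-receptor hemojuvelin of the hepcidin axis, rose 21-fold in siControl (log2 4.39, SE 0.18, limma adjusted p = 4.7e-08) and 27.3-fold in siBach1 cells (log2 4.77, SE 0.18, adjusted p = 3.5e-08). Ceruloplasmin (Cp), by its brightest probe, rose 6.23-fold (log2 2.64, SE 0.16, adjusted p = 4.8e-07) and 9-fold (log2 3.17, SE 0.16, adjusted p = 1.7e-07). Its tested probes ranged from 1.97-fold to 16.2-fold in siControl and from 2.56-fold to 11.6-fold in siBach1 cells. The probe with the largest rise was well above background on no day 0 array. Tmprss6 (log2 2.04 and 1.70), Tfr2 (1.72 and 2.43) and Hp (1.63 and 1.91) also rose. These Tfr2 and Hp probes were well above background on no siBach1 day 0 array. Among the brightest probes the largest fall was that of Steap1, by 1.5 (SE 0.10, adjusted p = 1.3e-06) and by 1.94 (SE 0.10, adjusted p = 2.7e-07) on the log2 scale. Whether these changes differ between siControl and siBach1 cells is the difference between the silencing effects, in which none of these genes passed the threshold.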
